A study of Mus musculus with 6 samples.

Results

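Voltage-gated potassium and sodium channel subunits of the heart were followed by 8 genes, Kcnd2, Kcnd3, Kcnip2, Kcna5, Kcnq1, Kcnh2, Kcne1 and Scn4b, taken by symbol from a table of 24421 genes. All 8 had enough reads to be among the 13010 genes tested. The RNA came from whole heart lysates of C57BL6/J mice aged 4 weeks, and no other genotype, treatment or sex is given in the labels. There were 6 libraries: 2 from RNA immunoprecipitation (RIP) with an antibody to Cnot3, 2 from RIP with a control IgG, and 2 from the lysate itself (Input). Cnot3 belongs to CCR4-NOT, the deadenylase that shortens the poly(A) tails of mRNA, and RIP sequences the RNA bound to the protein that an antibody pulls out of a lysate. The labels do not say whether the libraries of a group came from separate hearts, so each p-value and interval below reflects only how far these libraries spread, and that spread may be technical.

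The shape of the cardiac action potential is set by the order in which sodium and potassium channels open and close. Sodium channels carry the upstroke, Kv4 channels carry a fast outward current that starts repolarisation, and delayed rectifiers complete it. In mouse ventricle, where the action potential is short, the fast transient outward current is a main repolarising current, while the slow and rapid delayed rectifiers carry less current in adult mice than in large mammals. A channel is built from pore-forming subunits together with accessory subunits that change its gating or its transport to the membrane.

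None of the 8 transcripts passed the test across all genes between Cnot3 RIP and control IgG RIP, where 1.81% of all genes passed. Between Cnot3 RIP and Input 0 of 8 did so, beside 8.32% of all genes. The largest separation was that of Kcnd3, at 20.8 and 42.5 scaled CPM in Cnot3 RIP against 11.0 and 13.4 in Input, which missed the threshold. For Scn4b, Kcne1 and Kcnh2 the libraries within every group differed by more than the groups did. Scn4b and Kcne1 were at least 2-fold apart within all 3 groups, and Scn4b was 7.09-fold apart between the Cnot3 RIP libraries. Of all genes tested, 0.692% were at least 2-fold apart in the arrangement of libraries described below. With a pseudocount of 1, Kcne1 fell below 2-fold in Input. In each group the library with more Scn4b had less Kcne1.

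Library depth ranged from 15713318 to 33479580 reads, of which 51.1% to 79.2% belonged to the ribosomal RNA precursor Rn45s, leaving 3407528 to 12500739 reads for all other genes. Levels are in CPM (reads of a gene per 1e+06 reads of its library) scaled with TMM factors, which align the bulk of genes between libraries. A count of 0 allows up to 3 reads, or 0.0899 to 0.277 scaled CPM. On the deposited CPM, where Rn45s takes more of the Input, the median log2 difference of all genes was 0.30 for Cnot3 RIP against control IgG RIP, 1.02 for Cnot3 RIP against Input and 0.70 for control IgG RIP against Input, so the differences below are relative to the bulk of genes. All 10 cardiomyocyte markers had at least 10 reads in every library, with summed levels of 44282 to 133383 scaled CPM, against 9.77 to 37.8 for the 5 atrial markers. The 12 nerve and glia markers summed to 3.36 to 7.02 scaled CPM, with Snap25 and Th at 0 reads in every library. These sums were not divided by transcript length or number of genes, so they do not compare cell types with each other. In whole heart RNA, fewer cells of a type and less RNA per cell cannot be told apart.

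Kcnd2 and Kcnd3 encode the pore-forming subunits Kv4.2 and Kv4.3 of the fast transient outward current. Kcnd2 lies on chromosome 6, 21215503 to 21729805 on the plus strand of mm10, and Kcnd3 on chromosome 3, 105452330 to 105674002 on the plus strand. Kcnd2 stood at 29.0 and 25.3 scaled CPM in the control IgG RIP libraries, 18.7 and 22.2 in those of Cnot3 RIP and 20.1 and 20.3 in those of Input. Both Cnot3 RIP libraries were thus below both control IgG RIP libraries, and they straddled the Input. The Cnot3 RIP level was 0.753 of the control IgG RIP level, with a 95% interval of 0.537 to 1.05 (log2 fold change −0.41, SE 0.22, limma adjusted p = 0.384). Against Input the Cnot3 RIP ratio was 1.01 with an interval of 0.718 to 1.41, and its log2 value lay between −0.082 and 1.08 under other scalings.

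Kcnd3 stood at 24.7 and 14.6 scaled CPM in the control IgG RIP libraries, 20.8 and 42.5 in those of Cnot3 RIP and 11.0 and 13.4 in those of Input. Control IgG RIP and Cnot3 RIP overlapped, and both Input libraries were below all 4 RIP libraries. The log2 fold change was 0.64 over control IgG RIP (SE 0.37, limma adjusted p = 0.440), 1.27 for Cnot3 RIP over Input (SE 0.37, limma adjusted p = 0.0617) and 0.64 for control IgG RIP over Input (limma adjusted p = 0.312). Against Input the 95% interval of the Cnot3 RIP ratio was 1.37 to 4.28. That difference passed without Cnot3 RIP replicate 1 (log2 1.79, limma adjusted p = 0.00926) and in DESeq2 (log2 1.34, adjusted p = 0.00666), was 2.34 on the deposited CPM (limma adjusted p = 4.87e-04), and stood at 0.76 without Cnot3 RIP replicate 2 (limma adjusted p = 0.263). A stretch of 165 exon bases is shared with the antisense gene Kcnd3os, which held 1 to 8 reads per library.

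Kcnip2 encodes KChIP2, the calcium-binding accessory subunit that brings Kv4 channels to the membrane, and lies on chromosome 19, 45791839 to 45816061 on the minus strand. Its levels were 39.7 and 39.9 scaled CPM in the control IgG RIP libraries, 39.5 and 46.5 in those of Cnot3 RIP and 55.9 and 65.4 in those of Input. The RIP groups overlapped and both lay below the Input. Cnot3 RIP was 1.08 times control IgG RIP with a 95% interval of 0.769 to 1.51 (limma adjusted p = 0.885). Against Input the log2 fold change was −0.49 for Cnot3 RIP and −0.60 for control IgG RIP (limma adjusted p of 0.178 and 0.130), and 0.58 and 0.16 on the deposited CPM.

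**Figure D1:**
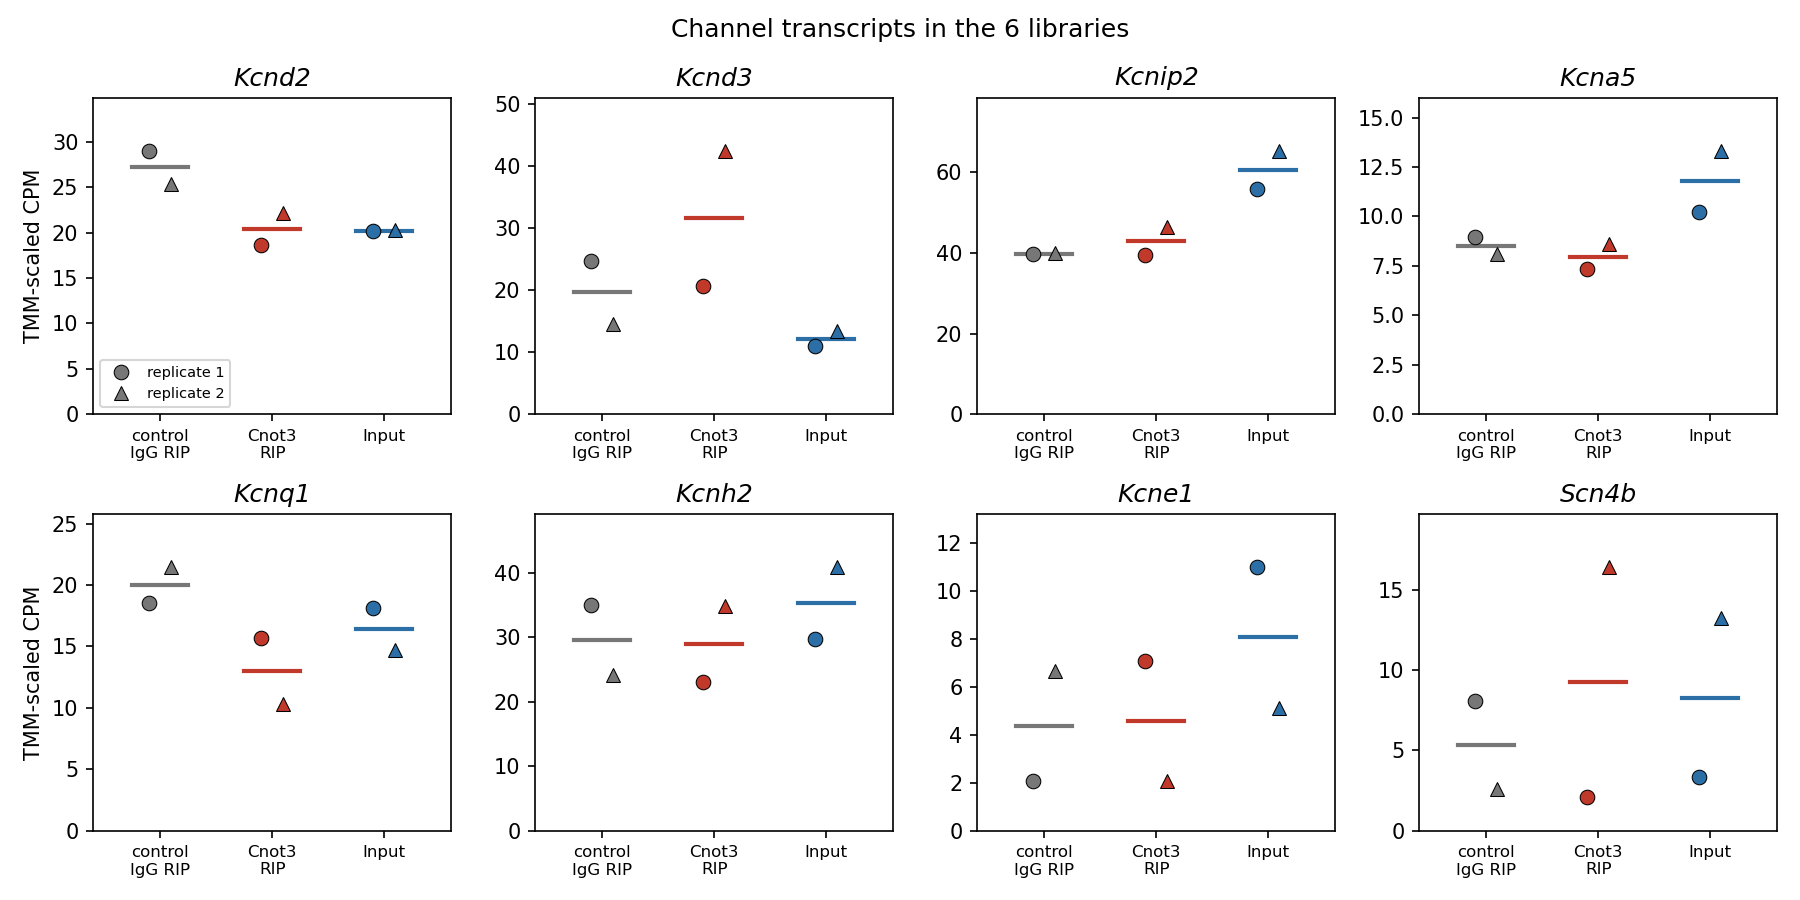
TMM-scaled CPM (vertical axis, from 0) of each of the 8 genes in the 6 libraries, by group; circles are replicate 1, triangles replicate 2 and lines the group mean. Kcnip2 and Kcna5 are higher in both Input libraries than in the 4 RIP libraries, and Scn4b, Kcne1 and Kcnh2 differ more within groups than between them.

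Because both genes of a ratio are read in the same library, ratios between subunits do not depend on the scaling. Kcnd3 over Kcnd2 was 1.11 and 1.92 in the Cnot3 RIP libraries, 0.853 and 0.578 in those of control IgG RIP and 0.546 and 0.662 in those of Input. The Cnot3 RIP libraries were thus the only ones with more reads of Kcnd3 than of Kcnd2. Kcnip2 over Kcnd2 was 2.114 and 2.099 in the Cnot3 RIP libraries, 1.37 and 1.58 in those of control IgG RIP and 2.78 and 3.22 in those of Input, so that the groups did not overlap and Cnot3 RIP lay between the other two. These ratios were chosen after the values were seen and are a description. With 2 libraries against 2 an exact permutation test cannot give a p under 0.333.

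**Figure D2:**
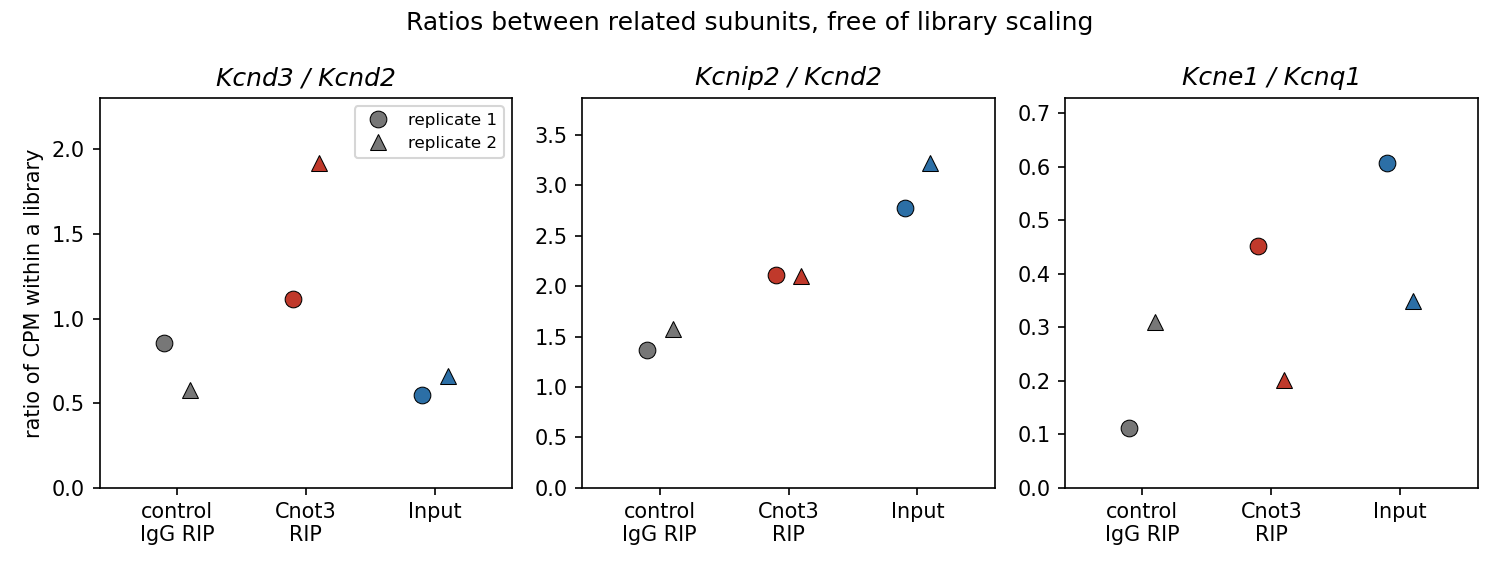
Ratio of CPM within a library (vertical axis, from 0) for Kcnd3 over Kcnd2, Kcnip2 over Kcnd2 and Kcne1 over Kcnq1, by group; circles are replicate 1 and triangles replicate 2. Kcnd3 over Kcnd2 is 1.11 and 1.92 in Cnot3 RIP and below 1 in the other 4 libraries, whereas Kcne1 over Kcnq1 differs between the libraries of every group.

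The pore-forming subunits of the delayed rectifiers are Kcna5 (Kv1.5, which opens and conducts very rapidly), Kcnh2 (ERG1, of the rapid component) and Kcnq1 (Kv7.1, of the slow component). Kcna5 is a gene without introns in its annotated transcript on chromosome 6, 126532551 to 126535412 on the minus strand. Its levels were 8.94 and 8.11 scaled CPM in the control IgG RIP libraries, 7.34 and 8.60 in those of Cnot3 RIP and 10.3 and 13.3 in those of Input. As for Kcnip2, the RIP groups overlapped and lay below both Input libraries. Cnot3 RIP was 0.935 of control IgG RIP with a 95% interval of 0.644 to 1.36 (limma adjusted p = 0.909), and the log2 value was 0.21 on the deposited CPM. Against Input the log2 fold changes were −0.54 and −0.45 for Cnot3 RIP and control IgG RIP, and 0.51 and 0.30 on the deposited CPM.

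Kcnh2 lies on chromosome 5, 24319589 to 24351604 on the minus strand. It stood at 35.1 and 24.1 scaled CPM in the control IgG RIP libraries, 23.1 and 34.8 in those of Cnot3 RIP and 29.6 and 40.9 in those of Input. All 3 groups overlapped. The Cnot3 RIP level was 0.975 of control IgG RIP, with a 95% interval of 0.616 to 1.54 (limma adjusted p = 0.977), and the log2 value was 0.28 on the deposited CPM. Against Input the log2 fold changes were −0.29 and −0.26 for Cnot3 RIP and control IgG RIP, and 0.78 and 0.50 on the deposited CPM, where the first was called (limma adjusted p = 0.0233).

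Kcnq1 lies on chromosome 7, 143106362 to 143427042 on the plus strand. Its levels were 18.5 and 21.5 scaled CPM in the control IgG RIP libraries, 15.7 and 10.3 in those of Cnot3 RIP and 18.1 and 14.7 in those of Input. Both Cnot3 RIP libraries were below both control IgG RIP libraries, and the log2 fold change of −0.64 (SE 0.26) had an unadjusted limma p of 0.0369 and an adjusted p of 0.248. Against Input the log2 fold change was −0.35 for Cnot3 RIP and 0.29 for control IgG RIP (limma adjusted p of 0.428 and 0.536), and 0.71 and 1.04 on the deposited CPM. Within the gene lies the antisense transcript Kcnq1ot1, a long noncoding RNA that silences neighbouring genes on one parental chromosome. It stood at 571 and 452 scaled CPM in the control IgG RIP libraries, 191 and 81.2 in those of Cnot3 RIP and 79.3 and 28.3 in those of Input. Kcnq1ot1 shares 121 exon bases with Kcnq1, or 2.96% of the annotated exon bases of Kcnq1, and since the strand setting of the counting is not given in the sources used here, reads of the pair cannot be told apart there. Its part in the Kcnq1 values was not tested.

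Kcne1 encodes minK, a small accessory subunit that slows Kcnq1 channels, on chromosome 16, 92345982 to 92359468 on the minus strand. It stood at 2.08 and 6.66 scaled CPM in the control IgG RIP libraries (36 and 147 reads), 7.09 and 2.07 in those of Cnot3 RIP (199 and 69 reads) and 11.0 and 5.12 in those of Input (119 and 106 reads). The groups overlapped in every comparison. Cnot3 RIP was 1.03 times control IgG RIP with a 95% interval of 0.384 to 2.75 (limma adjusted p = 0.991), and against Input the log2 fold change was −0.91 for Cnot3 RIP and −0.95 for control IgG RIP (SE 0.63 for both, limma adjusted p of 0.391 and 0.382), and the first of these was 0.11 on the deposited CPM.

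Scn4b encodes beta4, an accessory subunit of sodium channels, on chromosome 9, 45138395 to 45154152 on the plus strand. Its levels were 8.07 and 2.58 scaled CPM in the control IgG RIP libraries (140 and 57 reads), 2.101 and 16.4 in those of Cnot3 RIP (59 and 548 reads) and 3.32 and 13.2 in those of Input (36 and 274 reads). The groups overlapped throughout. The ratio of Cnot3 RIP to control IgG RIP was 1.29 with a 95% interval of 0.316 to 5.27 (limma adjusted p = 0.909), and leaving out a Cnot3 RIP library moved its log2 value from 1.78 (without replicate 1) to −1.04 (without replicate 2). Against Input it was −0.15 for Cnot3 RIP and −0.52 for control IgG RIP (SE 0.90 for both, limma adjusted p of 0.933 and 0.763), and 0.88 and 0.20 on the deposited CPM.

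Counted over the 8 genes, the comparisons gave no calls, and the share of members whose groups did not overlap was near or below that of all genes. Against control IgG RIP, 0 of 8 were called by limma at an adjusted p under 0.05, where 1.81% of all genes tested were called (1.54% higher and 0.277% lower). Before adjustment 1 member (Kcnq1) had a p under 0.05, beside 17.3% of all genes, and edgeR's quasi-likelihood test and DESeq2 called 0. In 0 members were both Cnot3 RIP libraries above both control IgG RIP libraries (24.0% of all genes), and in 2 (Kcnd2 and Kcnq1) below them (21.8%, and 45.9% without overlap in either direction). The members' median log2 fold change was 0.0020 and that of all genes −0.0029 (0.31 and 0.30 on the deposited CPM), with 4 above 0 and 4 below. Of the 8 intervals, 4 lay within 2-fold in both directions, those of Kcnd2, Kcnip2, Kcna5 and Kcnh2.

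Against Input, 0 of 8 were called in Cnot3 RIP, beside 8.32% of all genes (5.86% higher and 2.47% lower), and 3 had an unadjusted p under 0.05 (Kcnd3, Kcnip2 and Kcna5), beside 27.2%. The libraries did not overlap in 3 of 8, Kcnd3 above and Kcnip2 and Kcna5 below Input, beside 57.5% of all genes (30.6% above and 26.9% below). The members' median was −0.32 and that of all genes 0.06, against 0.74 and 1.02 on the deposited CPM. For control IgG RIP against Input, 0 of 8 were called (4.07% of all genes, 2.58% higher and 1.49% lower), 1 had an unadjusted p under 0.05 (Kcnip2; 24.9% of all genes), and the median was −0.35 against 0.0073 for all genes (0.40 and 0.70 on the deposited CPM). There 5 of 8 did not overlap, Kcnd2, Kcnd3 and Kcnq1 above and Kcnip2 and Kcna5 below, beside 58.9% of all genes (29.7% above and 29.3% below). Both comparisons with Input share their Input libraries, so their values are set side by side and were not correlated. On the deposited CPM, which carry the shift of all genes given above, limma called 3 members higher in each comparison with Input: Kcnd2, Kcnd3 and Kcnh2 in Cnot3 RIP and Kcnd2, Kcnd3 and Kcnq1 in control IgG RIP. All genes then split into 7752 higher and 7 lower for Cnot3 RIP against Input, where the scaled values gave 762 and 321.

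**Figure D3:**
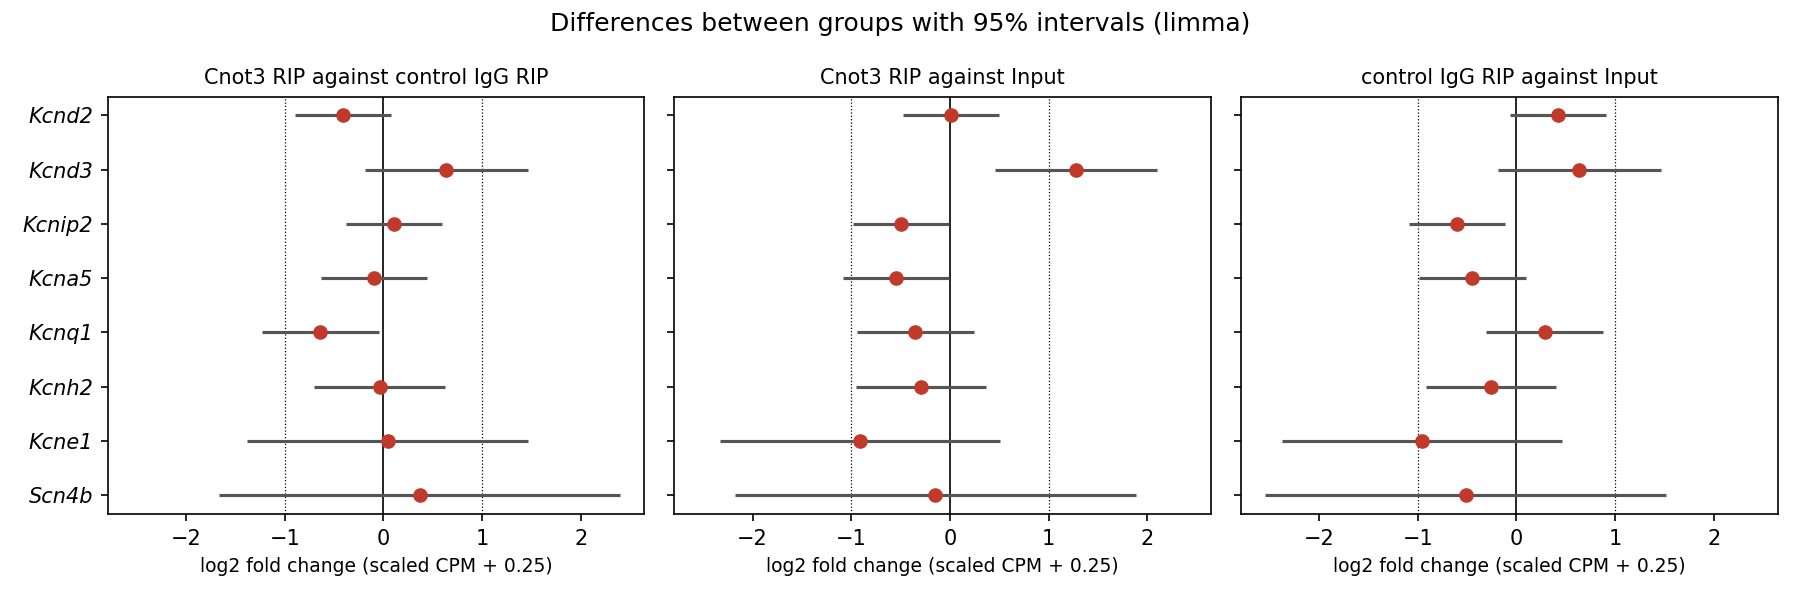
Log2 fold change of scaled CPM plus 0.25 (horizontal axis) of the 8 genes in the 3 comparisons; points are limma estimates, bars their unadjusted 95% intervals, and dotted lines mark 2-fold. The intervals of Kcne1 and Scn4b are the widest of the 8, and those of Kcnd2 and Kcnh2 lie within 2-fold in all 3 comparisons.

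The spread of Scn4b and Kcne1 followed the same arrangement of libraries in every group. Scn4b was higher in replicate 1 than in replicate 2 of control IgG RIP (2.94-fold on the log2 scale used here), and higher in replicate 2 than in replicate 1 of Cnot3 RIP (7.09-fold) and of Input (3.77-fold). Kcne1 ran the other way, being lower in the same 3 libraries by 2.97-fold, 3.17-fold and 2.09-fold. The ratio of Scn4b to Kcne1 reads was 3.89, 7.94 and 2.58 in those libraries and 0.388, 0.296 and 0.303 in the others. In Cnot3 RIP 99.9% of all genes tested differed less between the libraries than Scn4b did, and 98.9% less than Kcne1.

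Only 90 of 13010 genes (0.692%) differed by at least 2-fold in this arrangement in all 3 groups, and Scn4b and Kcne1 were 2 of them. The arrangement was noticed in these same data, so this is a description. With a pseudocount of 1, Kcne1 fell below 2-fold in Input and 1 member was left. Smaller differences of the same direction as Scn4b were seen in Kcnd2, Kcnd3, Kcna5 and Kcnh2, and of the same direction as Kcne1 in Kcnq1. Thus 7 of 8 members kept 1 direction in all 3 groups, beside 55.6% of 27 other tested channel subunits and 37.4% of all genes. Kcnd2 was only 1.01-fold apart in Input. On the deposited CPM, Kcnd2 and Kcna5 lost the common direction, with control IgG RIP replicates 1 and 2 at 27.9 and 32.3 for Kcnd2 and 8.60 and 10.4 for Kcna5. Kcnh2 was 1.45-fold, 1.50-fold and 1.38-fold apart, whereas Kcnip2 was at most 1.18-fold apart and in no common direction.

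Other transcripts varied with these libraries. Among 27 other tested subunits of Kv and Nav channels, Kcnv2, a silent subunit that joins other Kv subunits, was 3.49-fold, 4.41-fold and 2.79-fold higher in the libraries with more Scn4b, and it was the only 1 of the 27 past 2-fold in all 3 groups. Clock genes, which were looked at after the values of Scn4b were seen, did so as well. Per2, a repressor in the circadian clock, stood at 32.0 and 4.76 scaled CPM in the control IgG RIP libraries, 3.99 and 49.0 in those of Cnot3 RIP and 2.03 and 13.1 in those of Input. Arntl (Bmal1), an activator in the clock, stood at 1.15 and 5.94, 8.23 and 1.20, and 5.54 and 0.917. Per2 was thus high where Scn4b was high, and Arntl where Kcne1 was high. Of 11 clock genes, 6 were at least 2-fold apart in all 3 groups, beside 0.692% of all genes, and 11 kept 1 direction, beside 37.4%. These 11 were chosen after values of the same libraries were seen, so their counts are a description.

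Markers of other cell types also differed between the same libraries. The 7 smooth muscle and pericyte markers summed to 362, 352 and 294 scaled CPM in the libraries with more Kcne1 and 197, 181 and 219 in the others. The corresponding sums were 427, 434 and 328 against 269, 241 and 272 for 8 endothelial markers, and 836, 919 and 714 against 522, 462 and 580 for 7 fibroblast markers. For each of these 3 lists the libraries with more Kcne1 had the higher sum in every group. The 10 cardiomyocyte markers summed to 70400, 68576 and 44282 in those libraries and 133383, 81825 and 49895 in the others. The 5 conduction system markers, with Isl1 at 0 in all 3 groups, summed to 21.4, 25.2 and 17.5 against 16.2, 23.3 and 14.7, and the 5 atrial markers, with Bmp10 at 0 in control IgG RIP and Input, to 14.8, 15.9 and 37.8 against 13.7, 9.77 and 26.5. The 12 nerve and glia markers, with Snap25 and Th at 0 in all 3 groups, summed to 6.30, 5.06 and 7.02 against 4.90, 3.36 and 6.71. The conduction system, atrial and nerve and glia sums were thus also higher in the libraries with more Kcne1. The 7 leukocyte markers did not follow the arrangement in Input, at 70.9, 65.0 and 60.6 against 60.6, 45.9 and 72.1. Nor did the 3 ventricular markers, at 609, 674 and 1220 against 614, 462 and 1453. The part of cell composition or of clock phase in the Scn4b and Kcne1 values was not tested.

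**Figure D4:**
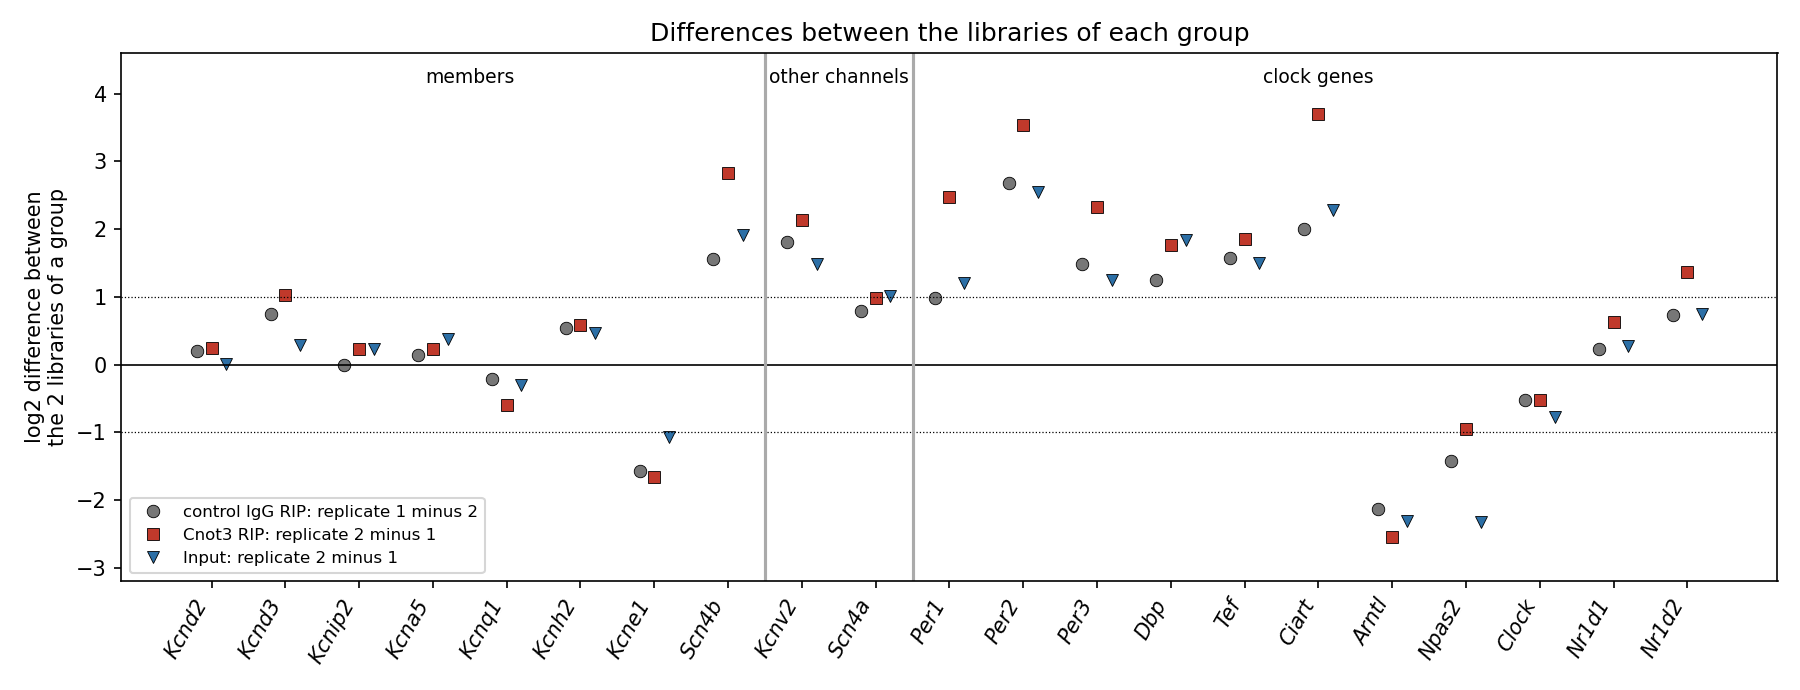
Log2 difference between the libraries of a group (vertical axis), signed as given in the legend, for the 8 genes, Kcnv2, Scn4a and 11 clock genes; circles are control IgG RIP, squares Cnot3 RIP and inverted triangles Input, and dotted lines mark 2-fold. Scn4b and Kcne1 lie beyond the dotted lines in all 3 groups and on opposite sides, with Per2 on the side of Scn4b and Arntl on that of Kcne1. Kcnv2 and Scn4a, picked from 27 other tested channel subunits, share the direction of Scn4b. The rest of the 27 are not drawn, and 55.6% of the 27 kept 1 direction in all 3 groups.

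Levels were compared between the genes per kb of coding-transcript exons, since longer transcripts give more reads. Kcnip2 was first in all 3 groups, at 24.3 ± 2.70 scaled CPM per kb (SD, n = 2) in Input, 17.2 ± 1.99 for Cnot3 RIP and 16.0 ± 0.0673 for control IgG RIP, and its libraries did not overlap those of the gene next in order. In Input it was followed by Kcnh2 (7.59 ± 1.71), Kcnq1 (5.41 ± 0.799), Kcna5 (4.12 ± 0.760), Kcnd2 (3.92 ± 0.0200), Kcne1 (2.51 ± 1.29), Scn4b (1.66 ± 1.41) and Kcnd3 (1.61 ± 0.226). Kcna5 and Kcnd2 overlapped, as did Kcne1, Scn4b and Kcnd3. In Cnot3 RIP the order from Kcnh2 (6.23 ± 1.79) through Kcnq1 (4.29 ± 1.25) and Kcnd3 (4.17 ± 2.03) to Kcnd2 (3.96 ± 0.479) held no neighbours that were separate. The place of Kcnd3 rests on the length used: 7598 bases over all its coding transcripts, and with the 2668 bases of the transcript with the longest coding sequence its Input level was 4.58.

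Other channel genes and proteins that act with them are read beside the shares of all genes called: 1.81% for Cnot3 RIP against control IgG RIP, 8.32% for Cnot3 RIP against Input and 4.07% for control IgG RIP against Input. Of 35 further pore-forming Kv subunits 14 were tested, and in these comparisons 0, 1 (higher) and 0 of the 14 were called. That gene was Kcna2, a Kv1 subunit known from axons, at 4.42 and 4.38 scaled CPM in the Cnot3 RIP libraries, 2.12 and 1.26 in those of Input and 1.50 and 2.49 in those of control IgG RIP (log2 fold change over Input 1.30, SE 0.34, limma adjusted p = 0.0467). Its call was lost with any 1 of the 6 libraries left out (log2 0.93 to 1.59, limma adjusted p of 0.0568 to 0.298). The Kcna2 call was also lost without a filter, without Rn45s, with only 2 groups fitted and with a replicate block. Among the other pore-forming subunits was Kcng2, a silent subunit, at 24.8 to 48.2 scaled CPM across the 6 libraries. The accessory Kv subunits (5 of 12 tested), the other Nav subunits (8 of 13) and the channel partner proteins (15 of 16) had 0 calls in any of the 3 comparisons. The highest accessory subunits were Kcne4, an inhibitory relative of Kcne1, at 0.750 to 5.64 scaled CPM, and Kcnab2, a cytoplasmic beta subunit, at 0.554 to 1.04. Kcne4 stood at 2.32 and 5.64 with the Cnot3 antibody, above the other 4 libraries (log2 fold change over control IgG RIP 1.52, SE 0.45, limma adjusted p = 0.123). Scn3b, a Nav subunit, went the other way, at 1.03 and 0.480 against 3.06 and 2.63 in control IgG RIP (log2 −1.67, SE 0.44, limma adjusted p = 0.0938). Both Cnot3 RIP libraries were above both of control IgG RIP in 24.0% of all genes and below in 21.8%. The counts were 1 above and 2 below for accessory, 3 and 4 for pore-forming and 0 and 3 for Nav subunits. The highest partners were Gja1, the gap junction protein connexin43, at 144 to 391, and Ank2, an anchor of membrane proteins, at 83.9 to 189.7. Among the Nav subunits was Scn7a, an atypical sodium channel, at 17.3 to 25.5 scaled CPM. Against control IgG RIP the median log2 fold changes of these lists lay between −0.09 and 0.06.

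Transcription factors known to act on channel genes were the last of the 5 lists. Irx3, which takes part in the fast conduction of the His-Purkinje system, stood at 10.3 and 23.1 scaled CPM in the Cnot3 RIP libraries, 4.67 and 4.53 in those of control IgG RIP and 5.26 and 5.21 in those of Input. Both Cnot3 RIP libraries were above the other 4 (3.23-fold over control IgG RIP, limma adjusted p = 0.0474, and 2.85-fold over Input, adjusted p = 0.0337). Both calls were lost with any 1 library left out other than Cnot3 RIP replicate 1: over control IgG RIP the log2 value of 1.69 became 1.11 without Cnot3 RIP replicate 2 (limma adjusted p = 0.201) and 1.67 without control IgG RIP replicate 1 (adjusted p = 0.385), where 0 genes in all were called. Hey2 and Tbx3, repressors that pattern the ventricular wall and the conduction system, were 2.38-fold and 2.22-fold higher in Cnot3 RIP than in Input (limma adjusted p of 0.0407 and 0.0268), and 2.78-fold and 2.06-fold higher than in control IgG RIP (adjusted p of 0.0502 and 0.0706). Hey2 stood at 5.13 and 7.52 scaled CPM in Cnot3 RIP and 1.90 to 3.05 elsewhere, and Tbx3 at 11.7 and 13.3 against 5.13 to 6.89, so that neither overlapped. Without Cnot3 RIP replicate 2 or either Input library both lost their call against Input (limma adjusted p of 0.0963 to 0.268), and Hey2 also without either control IgG RIP library (0.0621 and 0.0676). Hey2 also lost its call without a filter, without Rn45s, with only 2 groups fitted and with a replicate block, and Tbx3 without Rn45s. Irx3 lost both calls without a filter and with only 2 groups fitted. In all, 1 of 10 was called against control IgG RIP (1.54% of all genes higher), with a median of 0.46. Against Input 3 of 10 were called, all higher (5.86% of all genes), and 0 were called for control IgG RIP against Input.

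The genes with the nearest profiles over the 6 libraries were found by the root mean square distance of centred log2 levels, among 4720 or 4721 genes with at least 10 scaled CPM. Scn4b was nearest to Tef (0.35) and Mt1 (0.37), and Kcne1 to Fam101b (0.23) and Acta2 (0.26). Tef is among the clock genes above and Acta2 among the smooth muscle markers. Kcnd3 was nearest to Plxna2 (0.09) and Rapgef2 (0.09), Kcnd2 to Map3k7 (0.05) and Rtn3 (0.06), and Kcnq1 to Hnrnph1 (0.10) and Luc7l3 (0.12). Kcnip2 was nearest to Cpped1 (0.03) and Nsun4 (0.04), Kcna5 to Mmadhc (0.04) and Cops7a (0.04), and Kcnh2 to Got1 (0.05) and Fem1a (0.05). Within the 8 genes, Kcnip2 and Kcna5 were each other's nearest (0.10), whereas Scn4b had no member nearer than Kcnh2 (0.84).

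The 3' UTRs of the members were searched for elements by which short-lived mRNAs recruit decay factors. The AU pentamer ATTTA was in the longest 3' UTR of 6 of 8 members, beside 71.3% of 12002 genes. Read on the transcript strand, it occurred 7 times in the 2463 bases of Kcnd2, 6 times in the 4793 bases of the longest Kcnd3 3' UTR, 2 times each in Kcna5, Kcne1 and Scn4b, 1 time in Kcnh2 and 0 times in Kcnip2 and Kcnq1. The Kcnd3 transcript with the longest coding sequence has a 3' UTR of 251 bases with 0 copies. Per kb the count was 2.84 in Kcnd2, 1.25 in Kcnd3, 2.49 in Kcna5, 2.43 in Kcnh2, 0.774 in Kcne1 and 0.548 in Scn4b, beside a median of 1.34 over those genes. The longer TATTTAT, each of which contains the pentamer, occurred 1 time in Scn4b and 1 time in Kcnd3 (2 of 8), beside 31.3% of genes. ATTTATTTA and the Pumilio element TGTANATA occurred in 0 of 8, beside 6.82% and 27.3% of genes. In the last 300 bases, a window of the same length for every gene, 5 members (Kcnd2, Kcnd3, Kcnh2, Kcne1 and Scn4b) held ATTTA, beside 44.8% of 10366 genes, and 0 held TATTTAT, beside 10.7%. These matches describe letters and not bound sites.

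The sites are shown for the Kv4 pair and for Scn4b and Kcne1. Kcnd3 over Kcnd2 was higher in both Cnot3 RIP libraries than in those of control IgG RIP and Input, which overlapped. Scn4b and Kcne1 were the members whose libraries differed most. Each line gives the ATTTA nearest the 3' end, or the TATTTAT where named, in capitals with its flanks, from GENCODE M21 transcripts of mm10.
Kcnd2 ATTTA: gttttaggtgATTTAaaatatactg
Kcnd3 ATTTA: catgtatatcATTTAcagtactgag
Kcnd3 TATTTAT: aatggataaTATTTATtcatgggaa
Kcne1 ATTTA: aataaagaagATTTAaatacacaat
Scn4b ATTTA: gcagacttggATTTAgcttcgcttt
Scn4b TATTTAT: ctttttaaaTATTTATttgagcaga
The Kcnd3 pentamer lies 70 bases from the annotated 3' end, that of Kcne1 58 and that of Scn4b 35, whereas the one in Kcnd2 lies 237 bases from the end.

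RefSeq promoters of 300 bases around the start (GRCm38.p6) were at hand for 6 of the 8 genes, Kcna5, Kcnd2, Kcnd3, Kcnh2, Kcnip2 and Scn4b. The Kcnh2 window lies on chromosome 5 at 24329542 to 24329841, inside the gene as annotated above, and so is that of an internal start. The Scn4b window, on chromosome 9 at 45138374 to 45138673, also lies mostly inside the annotated gene, which starts at 45138395. Little sequence upstream of that annotated start was thus searched for Scn4b. All 6 were searched on both strands for the E-box CACGTG, the D-box forms TTATGTAA and TTACGTAA and the ROR element TAGGTCA. None of the 6 held any of these letters, and among 32851 promoters of that length they occurred in 7.15%, 0.938%, 0.119% and 2.61%. The windows of the clock genes Clock, Dbp, Npas2, Nr1d1 and Nr1d2 held none either, whereas windows of Arntl, Ciart, Per1, Per3 and Tef held some. Arntl and Per1 also had a window that held none, and no window was at hand for Per2. Whether the clock acts on the channel genes was not tested.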

How the data were processed

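The authors deposited 1 table of CPM per gene symbol and library. Per the submitters' processing notes, mm10, TopHat2 2.1.0, Bowtie2 2.2.5, edgeR, FastQC and CASAVA 1.8 were used. The sources used here do not give the read counter, annotation or strand setting. All values were whole reads within 0.01 read (100%), so reads could be recovered. With limma 3.58.1 in R 4.3.3, means of the 3 groups were fitted to log2(TMM-scaled CPM + 0.25) of all 6 libraries with a trended prior, with TMM factors and filterByExpr (minimum count 10) from edgeR 4.0.16, and p-values were adjusted over 13010 genes (Benjamini-Hochberg) and called under 0.05. Fold changes are on that log2 scale and understate those of low genes.

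On simulated data for Cnot3 RIP against control IgG RIP (13010 genes), limma called 10.4% of 67 genes changed 2-fold and 82.1% of 67 changed 4-fold. edgeR's quasi-likelihood test and DESeq2 1.42.0 on the recovered reads, other scalings, pseudocounts and filters, a replicate block and leaving out each library were tried as alternatives. The members, gene lists and tests were chosen with earlier results of these data known. Besides the members, the named genes are those called in 5 lists of related genes (or the 2 with the highest mean where a list had no call; some others are named beside them) and the 2 nearest in profile to each member. Some genes under this rule are not reported here. Lengths and 3' UTRs came from GENCODE M21.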

Additional observations from a re-analysis of the deposited data

How the results depend on the processing

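The count of members called against control IgG RIP was 0 under each alternative run, also with each library left out. Against Input it was 0 in the fit reported, 3 on the deposited CPM in both comparisons, and 1 in DESeq2 for Cnot3 RIP; with 1 library left out it was 0 to 1 for Cnot3 RIP (1 without Cnot3 RIP replicate 1) and 0 for control IgG RIP. The members' median of 0.0020 over control IgG RIP became 0.31 on the deposited CPM (−0.27 to 0.12 with a library left out). The median against Input became 0.74 for Cnot3 RIP (−0.50 to −0.19) and 0.40 for control IgG RIP (−0.47 to 0.10), and −0.51 for the latter on CPM rescaled without Rn45s. Members past 2-fold between libraries in all 3 groups numbered 1 with a pseudocount of 1. The deposited CPM differ from the scaled ones by a shift of all genes. The cause of the other changes was not tested.

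Signs turned in 18 values with all libraries kept and 18 with a library left out, while 213 and 125 others kept their sign and their side of the threshold, and 9 and 1 passed it. On the deposited CPM, log2 fold changes over control IgG RIP were 0.21 (Kcna5) and 0.28 (Kcnh2). There, Cnot3 RIP over Input gave 0.58 (Kcnip2), 0.51 (Kcna5), 0.71 (Kcnq1), 0.78 (Kcnh2), 0.11 (Kcne1) and 0.88 (Scn4b), and control IgG RIP over Input 0.16 (Kcnip2), 0.30 (Kcna5), 0.50 (Kcnh2) and 0.20 (Scn4b). Without Rn45s Kcnh2 had 0.028 over control IgG RIP and Kcnd2 −0.082 in Cnot3 RIP over Input. Kcnd2 in Cnot3 RIP over Input had −0.018 with DESeq2 size factors and −0.013 in DESeq2, and Scn4b had 0.13 in both edgeR's quasi-likelihood test and DESeq2. Leaving out 1 library gave over control IgG RIP −0.21 to 0.015 (Kcna5), −0.33 to 0.26 (Kcnh2), −0.79 to 0.87 (Kcne1), −0.012 to 0.22 (Kcnip2) and −1.04 to 1.78 (Scn4b). For Cnot3 RIP over Input it gave −0.59 to 0.00045 (Kcnh2), −1.56 to 1.26 (Scn4b) and −0.11 to 0.13 (Kcnd2), and for control IgG RIP over Input −0.53 to 0.0099 (Kcnh2) and −1.49 to 0.43 (Scn4b).

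Counts over all genes moved by more than 1.5 times in several settings. Against control IgG RIP the 236 became 27 without a filter, 625 on the deposited CPM (592 higher, 33 lower, against 200 and 36), 735 in DESeq2, 134 with only 2 groups fitted and 0 to 1275 with a library left out. For Cnot3 RIP against Input the 1083 became 560 without a filter, 7759 on the deposited CPM, 638 without Rn45s, 701 with 2 groups and 10 to 1958. For control IgG RIP against Input the 530 became 4393 on the deposited CPM, 258 without Rn45s, 339 in edgeR's quasi-likelihood test, 906 with 2 groups and 20 to 864.

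A replicate block, the number in the titles, called 0 members in each comparison and 385, 809 and 325 genes. With only 2 numbers the data cannot show that these pair the libraries. Across 13010 genes, which are not independent, the difference of replicate 2 minus replicate 1 in control IgG RIP correlated with that in Cnot3 RIP at r = −0.32 and in Input at r = −0.33, and Cnot3 RIP with Input at r = 0.34. A block with the control IgG RIP numbers crossed, added after the libraries were compared, called 0, 2 (Kcnd3 and Kcne1) and 1 (Kcne1) members and 1065, 2498 and 1870 genes; the crossing was chosen from these same libraries.

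Depth was 36 to 548 reads for Scn4b and 36 to 199 for Kcne1, and floors and counting error cover reads only, which are not independent molecules.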
